A study of Mus musculus with 96 samples.

Results

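The genes of the synaptic vesicle release machinery were described in the striatum and the cortex of mice that combine the Q140 knock-in allele with 0, 1 or 2 working copies of Pms1. The set was taken by name from the gene counts and holds the synaptotagmins (Syt), synapsins (Syn), SV2 proteins (Sv2), complexins (Cplx), VAMPs, syntaxins (Stx), syntaxin-binding proteins (Stxbp), RIM proteins (Rims), Munc13 proteins (Unc13) and Rab3 proteins. Of the 48795 genes counted, 66 carried such a name, and the 61 with a mean of at least 1 CPM (counts scaled to library size) in striatum or in cortex were kept. Cplx4, Syt8, Stx11, Stx19 and Syt15 fell below that level. Just outside it was Syt15 at 0.949 CPM in striatum and 0.721 CPM in cortex, and the weakest gene kept was Vamp5 at 1.37 CPM in striatum and 1.28 CPM in cortex.

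Striatum and cerebral cortex RNA was sequenced from 48 C57BL/6 mice aged 6 months, 96 libraries in all. Q140 is an allele of the mouse Huntington's disease gene Htt with an expanded CAG repeat, and Pms1 encodes a mismatch repair protein of the MutL family. The 6 genotypes, each with 4 females and 4 males, were Het (Q140) KI X Pms1-/- (here Q140 Pms1 null), Het (Q140) KI X Pms1+/- (Q140 Pms1 het), heterozygous Q140 alone (Q140), Pms1-/- (Pms1 null), Pms1+/- (Pms1 het) and wild type (WT). The knock-in was heterozygous wherever it was present. Every group named below therefore has n = 8 animals, and the p-values take the animals as independent.

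Neurons release transmitter when vesicles docked at the active zone fuse with the plasma membrane. A vesicle VAMP pairs with a plasma membrane syntaxin and SNAP-25 to form the SNARE complex, Munc13 proteins help assemble it, complexins hold it, and a synaptotagmin that binds calcium triggers fusion. RIM and Rab3 proteins tie vesicles to the active zone, synapsins hold the reserve pool, and other syntaxins and VAMPs serve the Golgi, endosomes and lysosomes. Most striatal neurons are medium spiny neurons, inhibitory cells whose release sites lie both within the striatum and in its target nuclei, while the RNA of their cortical inputs is in the cortex.

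Promoters are shown for Syt9, Cplx2 and Unc13b, the genes with 1 entry in the RefSeq table that passed the test in striatum both for the knock-in and for the loss of Pms1 in knock-in animals. Each is the window from 250 bases before to 50 bases after a RefSeq start on GRCm38.p6, 5′ to 3′ on the + strand, in lower case. Capitals mark matches to the GC box (GGGCGG, or CCGCCC read from the other strand) and the E-box (CACGTG, the same on both strands), and no marked matches overlap. Their positions are chr7:107370540-107370839 for Syt9, chr13:54302306-54302605 for Cplx2 and chr4:43058703-43059002 for Unc13b. The Cplx2 window lies upstream of the span that GENCODE release M21 gives the gene (chromosome 13, 54371349 to 54383917).
Syt9: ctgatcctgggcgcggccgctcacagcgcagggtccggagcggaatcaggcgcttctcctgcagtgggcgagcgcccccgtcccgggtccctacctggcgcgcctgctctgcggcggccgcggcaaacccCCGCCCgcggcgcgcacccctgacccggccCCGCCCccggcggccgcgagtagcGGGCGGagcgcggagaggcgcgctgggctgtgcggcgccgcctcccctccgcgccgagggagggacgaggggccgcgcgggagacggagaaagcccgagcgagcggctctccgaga
Cplx2: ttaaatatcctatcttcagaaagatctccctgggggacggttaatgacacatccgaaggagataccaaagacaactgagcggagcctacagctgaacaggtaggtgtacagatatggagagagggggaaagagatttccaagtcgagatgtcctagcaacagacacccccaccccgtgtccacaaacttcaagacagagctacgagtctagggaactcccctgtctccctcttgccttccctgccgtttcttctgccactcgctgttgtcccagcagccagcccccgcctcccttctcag
Unc13b: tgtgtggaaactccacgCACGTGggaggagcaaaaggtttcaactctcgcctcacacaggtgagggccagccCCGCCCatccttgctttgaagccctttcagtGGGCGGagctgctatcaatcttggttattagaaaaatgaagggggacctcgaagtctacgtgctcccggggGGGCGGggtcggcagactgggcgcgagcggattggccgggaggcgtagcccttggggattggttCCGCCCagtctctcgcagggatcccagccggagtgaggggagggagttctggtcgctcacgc
The Syt9 window held 3 GC boxes and the Unc13b window 4 GC boxes and 1 E-box, while the Cplx2 window held neither motif. G and C made up 79.3% of the Syt9 bases, 62.0% of the Unc13b bases and 53.3% of the Cplx2 bases, against a median of 52.7% over all 32851 promoter windows of the table. Of the 61 release genes, 47 had an entry, with 61 windows between them. A GC box was found in 70.5% of these windows and in 35.7% of all windows, and an E-box in 14.8% and in 7.15%. The cyclic AMP response element (TGACGTCA, the same on both strands) was found in 3.28% of the release gene windows and in 1.79% of all windows, and the EGR site (GCGTGGGCG, or CGCCCACGC) in 1.64% and in 0.612%. The release gene windows were also richer in G and C, with a median of 62.3%, and a match describes only the letters in the window. All windows of the table were counted whatever the CPM of their gene, while the release genes had to reach 1 CPM. The part of that choice in these shares was not tested.

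The libraries held 27993751 to 56364535 reads counted in genes. Pms1 itself was counted at 3.08 to 4.47 CPM in Pms1 null striatum (median 4.12), against 4.89 to 5.85 CPM in WT striatum (median 5.38), and at 2.95 to 4.05 CPM in Pms1 null cortex, against 3.30 to 4.37 CPM in WT cortex. The labels do not give the deleted part of Pms1, so a count over the whole gene checks the labels only weakly. Every Q140 Pms1 null and Pms1 null animal has a code whose first number is 16 or more, against 1 Q140 Pms1 het, 3 Q140, 0 Pms1 het and 2 WT animals. The sources used here do not give the meaning of that number, and results on the loss of Pms1 are therefore printed with it in the fit as well. In 4 striatum libraries (2 Pms1 null, 1 Q140 Pms1 het and 1 Q140 Pms1 null) the 5 markers of cortical glutamatergic neurons summed to 20.2 to 40.0 CPM, against 3.61 to 8.31 CPM in the other 44. In WT the labelled tissues carried their own markers: the 9 markers of medium spiny neurons summed to a median of 13500 CPM in striatum and 458 CPM in cortex, and those of cortical glutamatergic neurons to 5.65 CPM in striatum and 1674 CPM in cortex. Libraries were made with a stranded kit, but the sources used here do not give the strand setting of the counting, so a gene that overlaps another on the opposite strand is uncertain. Such overlaps are named below only for some genes. Others that have one include Rab3a, Rab3b, Stxbp6, Sv2c, Syn1, Syn2, Syt1, Syt6, Syt7, Syt16, Unc13b and Vamp1.

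In WT striatum the most abundant release transcripts per length, in the authors' FPKM (fragments scaled by gene length and library size), came from complexins and the vesicle SNARE. Cplx2, a complexin, stood highest at 426 ± 16.8 FPKM (SD, n = 8), against 277 ± 22.9 FPKM (SD, n = 8) in WT cortex. The vesicle SNARE Vamp2 followed at 193 ± 2.56 FPKM in WT striatum and 266 ± 13.8 FPKM in WT cortex (SD, n = 8 each). Cplx1, the other main complexin, had 190.2 ± 7.85 FPKM in WT striatum and 375 ± 30.1 FPKM in WT cortex (SD, n = 8 each). Cplx2 had the highest mean of the 61 genes in WT striatum and Cplx1 in WT cortex.

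Other families were read on the same FPKM scale. Rab3a, the main Rab3 of vesicles, stood at 148 ± 1.68 FPKM in WT striatum and 229.7 ± 10.5 FPKM in WT cortex (SD, n = 8 each). Among the synaptotagmins Syt11 led in WT striatum at 139 ± 1.51 FPKM, and Syt1, the calcium sensor of fast release in the forebrain, led in WT cortex at 243 ± 7.64 FPKM (SD, n = 8 each). Syt1 stood at 117 ± 3.11 FPKM in WT striatum and Syt11 at 145 ± 4.07 FPKM in WT cortex (SD, n = 8 each). Rab3a and Syt1 both had a lower mean FPKM in WT striatum than in WT cortex. Sv2a, a vesicle glycoprotein, stood at 79.8 ± 2.52 FPKM in WT striatum and 111 ± 3.97 FPKM in WT cortex, and Syn1, a synapsin, at 79.8 ± 2.48 FPKM in WT striatum and 214 ± 8.79 FPKM in WT cortex (SD, n = 8 each). Among the active zone proteins of WT striatum, Unc13a (Munc13-1) stood at 30.9 ± 1.83 FPKM below its relative Unc13c at 37.1 ± 2.24 FPKM, while in WT cortex Unc13a stood at 47.0 ± 3.09 FPKM and Unc13c at 3.25 ± 0.253 FPKM (SD, n = 8 each). Rims2 at 17.6 ± 0.581 FPKM led the RIM genes in WT striatum, and Rims3 at 70.0 ± 2.94 FPKM led them in WT cortex (SD, n = 8 each).

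WT striatum and WT cortex differed in most release genes, with more of them lower in striatum. Of the 61 genes, 53 passed the test between WT striatum and WT cortex, 17 higher and 36 lower in striatum, where 74.5% of all 19723 genes tested passed, 37.8% higher and 36.7% lower. Of the genes with at least 1 CPM on average in either tissue, 79.6% passed. Cplx3 is the 1 member that reached 1 CPM in cortex alone, so the choice of members bears on its difference; of the other 60 genes 52 passed, 17 higher and 35 lower, with a median log2 fold change of striatum over cortex of -0.27. The median over all genes tested was 0.018. All 4 RIM genes and both synaptobrevins of synaptic vesicles, Vamp1 and Vamp2, were lower in striatum. The markers of medium spiny neurons (9 of 9), oligodendrocytes (5 of 5) and microglia (5 of 5) were higher in WT striatum, and those of cortical glutamatergic neurons (5 of 5) and astrocytes (5 of 5) lower, and their part in the result was not tested.

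Several synaptotagmins and 1 member each of the SV2 and Munc13 families marked the striatum. Syt6, a calcium-binding synaptotagmin also known from the sperm acrosome, lay at 173 to 218 CPM (median 201) in WT striatum, against 5.08 to 13.8 CPM (median 7.32) in WT cortex (log2 fold change 4.70, SE 0.13, adjusted p = 1.27e-51). Every striatum library was far above every cortex library. Unc13c, the Munc13-3 best known from the cerebellum, lay at 305 to 368 CPM (median 333) in WT striatum, against 25.6 to 31.5 CPM (median 29.3) in WT cortex (log2 fold change 3.54, SE 0.063, adjusted p = 1.19e-67). Sv2c, the SV2 isoform known for its place in the basal ganglia, lay at 319.5 to 382 CPM (median 348) in WT striatum, against 34.7 to 44.6 CPM (median 38.2) in WT cortex (log2 fold change 3.18, SE 0.058, adjusted p = 3.95e-67). Again no libraries of the tissues overlapped. Syt10, a calcium sensor for growth factor secretion in the mouse olfactory bulb, lay at 13.6 to 17.1 CPM (median 15.6) in WT striatum, against 1.23 to 2.19 CPM (median 1.74) in WT cortex (log2 fold change 3.15, SE 0.16, adjusted p = 1.02e-32). Syt9, a fast calcium sensor of striatal and limbic neurons in mice, lay at 16.9 to 23.7 CPM (median 21.0) in WT striatum, against 4.34 to 6.47 CPM (median 5.19) in WT cortex (log2 fold change 2.05, SE 0.079, adjusted p = 9.12e-43). The ranges of both genes stood apart between the tissues.

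Several other release genes were far lower in striatum than in cortex. Cplx3, a complexin of retinal and deep cortical neurons, lay at 0.3 to 0.478 CPM (median 0.437) in WT striatum, against 7.36 to 9.15 CPM (median 8.14) in WT cortex. It is a member through its cortical level alone, so these values are given without a test. Stx1a, a plasma membrane SNARE of neurons, lay at 26.9 to 29.8 CPM (median 28.7) in WT striatum, against 334 to 369.6 CPM (median 338) in WT cortex (log2 fold change -3.56, SE 0.035, adjusted p = 3.85e-93). Syt17, a synaptotagmin relative without calcium-dependent membrane binding, lay at 3.36 to 5.22 CPM (median 3.81) in WT striatum, against 32.2 to 44.2 CPM (median 40.5) in WT cortex (log2 fold change -3.42, SE 0.092, adjusted p = 9.80e-54). No library of WT striatum reached any library of WT cortex for these genes. Syt13, another synaptotagmin that does not bind calcium, lay at 31.7 to 36.3 CPM (median 33.1) in WT striatum, against 279 to 327 CPM (median 306) in WT cortex (log2 fold change -3.22, SE 0.046, adjusted p = 1.28e-78). Vamp1, the synaptobrevin of fast-spiking and motor neurons, lay at 36.6 to 59.4 CPM (median 43.8) in WT striatum, against 236 to 292 CPM (median 254) in WT cortex (log2 fold change -2.63, SE 0.11, adjusted p = 1.74e-36). Both were low in every striatum library and high in every cortex library.

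**Figure D1:**
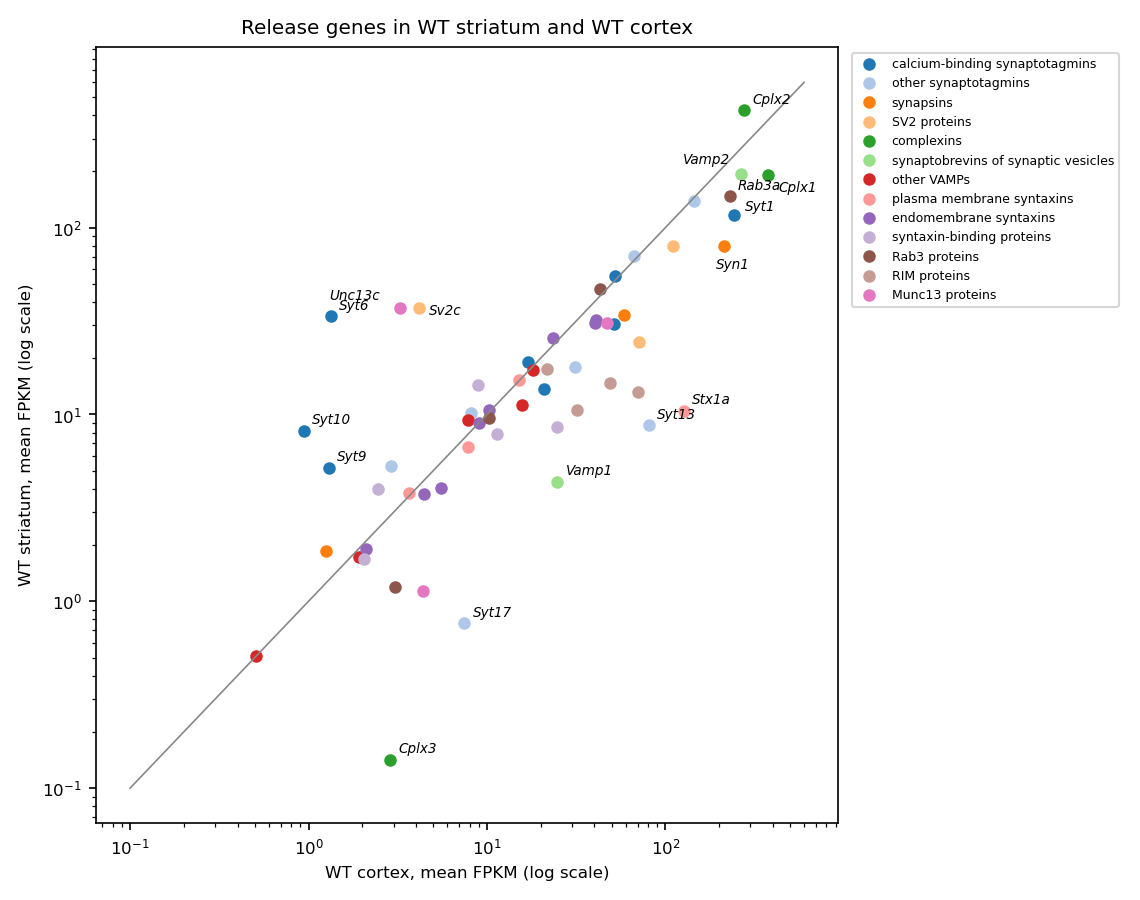
Mean FPKM of 59 of the 61 release genes in WT striatum (vertical, log scale) against WT cortex (horizontal, log scale), 8 animals each, coloured by role; the line marks equal levels. Syt6, Unc13c, Sv2c, Syt10 and Syt9 stand far above the line, and Cplx3, Stx1a, Syt17, Syt13 and Vamp1 far below it.

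The knock-in moved the release genes of the striatum in both directions, without a common shift. In striatum, 29 of the 61 genes passed the test for Q140 against WT, 13 higher and 16 lower, where 31.3% of all 18890 genes tested passed, 15.9% higher and 15.4% lower. Of the genes that reach the level the release genes had to reach, 1 CPM on average in either tissue, 35.5% passed; below these are called genes of that level. The median log2 fold change was -0.028 over the 61 genes and 0.012 over all genes, and the median size regardless of direction was 0.094 and 0.11. With limma on the log2 of the deposited FPKM plus 0.1, 33 of the 61 passed, 24 higher and 9 lower, so the balance of directions depends on the scaling. The log2 fold changes on that scale shifted from those of edgeR by a median of 0.073 over all genes. For this and the later limma counts, the shares of all genes that passed higher or lower on the FPKM scale were not counted. There Syt9 had a log2 fold change of -0.57, Syt2 of -0.60 and Unc13b of 0.40. The values of the 61 genes ran between -0.66 (Syt2) and 0.35 (Unc13b) on the log2 scale, and in 9 genes the 8 Q140 animals all lay above or all below the 8 WT animals. Over all genes tested 8.13% had such separate ranges, and 9.48% of genes of that level.

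Read by role, with no test between roles, the calls fell as follows. Of the 15 synaptotagmins, 9 fell and 2 rose, and of the 8 syntaxins of the endomembranes, 4 rose and 1 fell. Of the 5 plasma membrane syntaxins 3 fell, and 1 complexin, 1 RIM gene and 1 Munc13 gene fell. One member rose in each of the synapsins, the SV2 proteins, the Rab3 proteins, the Munc13 proteins and the VAMPs outside synaptic vesicles, and 2 syntaxin-binding proteins rose. Vamp1 and Vamp2 did not pass the test.

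In the same libraries the cell type markers moved too. The 9 markers of medium spiny neurons summed to 7660 to 8846 CPM in Q140 striatum (median 8330), against 12380 to 14020 CPM in WT striatum (median 13500), and all 9 were lower. Microglia markers summed to a median of 243 CPM in Q140 and 274 CPM in WT striatum, with 4 of 5 lower, and endothelial markers to 115 CPM in Q140 and 132 CPM in WT striatum, with 3 of 4 lower. Of the other lists, 1 of 5 oligodendrocyte, 1 of 6 interneuron and 1 of 4 thalamic or pallidal markers were lower, 1 of 5 cortical glutamatergic markers was higher, and 0 of 5 astrocyte markers passed. For medium spiny neurons, microglia and endothelial cells the summed ranges stood apart between Q140 and WT striatum, and their part in the changes of the release genes was not tested. In bulk tissue, fewer cells of a type and less RNA per cell cannot be told apart.

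Syt9 and Syt2 had the largest losses, and both encode fast calcium sensors. Syt9 (ENSMUSG00000062542, chromosome 7, 107370728 to 107548656, + strand of GRCm38) lay at 11.7 to 14.8 CPM (median 13.4) in Q140 striatum, against 17.0 to 23.9 CPM (median 21.1) in WT striatum (log2 fold change -0.66, SE 0.065, adjusted p = 1.69e-11). All 8 Q140 animals were below all 8 WT animals. The other medians were 16.1 CPM for Q140 Pms1 null, 15.4 CPM for Q140 Pms1 het, 19.6 CPM for Pms1 null and 21.0 CPM for Pms1 het striatum. Syt2 (ENSMUSG00000026452, chromosome 1, 134646677 to 134762593, + strand), the fast sensor of inhibitory basket cells and hindbrain synapses, lay at 52.9 to 84.9 CPM (median 69.3) in Q140 striatum, against 92.4 to 117 CPM (median 108) in WT striatum (log2 fold change -0.66, SE 0.1, adjusted p = 1.84e-06). Here too the groups did not overlap. The remaining genotypes had medians of 84.3 CPM for Q140 Pms1 null, 81.0 CPM for Q140 Pms1 het, 103 CPM for Pms1 null and 93.6 CPM for Pms1 het striatum, and it overlaps Ppp1r12b on the opposite strand. In both genes the median of every genotype with the knock-in was below that of every genotype without it.

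Other calcium-binding synaptotagmins changed less. Syt10 lay at 8.53 to 15.5 CPM (median 12.2) in Q140 striatum, against 13.7 to 17.2 CPM (median 15.7) in WT striatum (log2 fold change -0.39, SE 0.13, adjusted p = 0.0246). Of the 8 Q140 animals 7 were below all WT animals. Medians elsewhere in striatum were 15.8 CPM for Q140 Pms1 null, 13.6 CPM for Q140 Pms1 het, 13.6 CPM for Pms1 null and 14.2 CPM for Pms1 het striatum, and with limma on FPKM it missed the threshold (adjusted p = 0.0653). Syt6 lay at 148 to 192 CPM (median 171) in Q140 striatum, against 175 to 219.7 CPM (median 202) in WT striatum (log2 fold change -0.25, SE 0.045, adjusted p = 2.30e-05), and 7 of the 8 Q140 animals were below the WT range. Among the other genotypes, medians were 171 CPM for Q140 Pms1 null, 166 CPM for Q140 Pms1 het, 178 CPM for Pms1 null and 193 CPM for Pms1 het striatum. Syt1, the most abundant sensor, lay at 884 to 982 CPM (median 941) in Q140 striatum, against 973 to 1029 CPM (median 1001) in WT striatum (log2 fold change -0.094, SE 0.021, adjusted p = 0.000278). That loss was small, with overlapping ranges, and on the FPKM scale it missed the threshold (log2 fold change -0.021, limma's adjusted p = 0.376). Syt7, a slow high-affinity sensor of asynchronous release, moved the other way, with 229 to 268 CPM (median 238) in Q140 striatum, against 211 to 224 CPM (median 219.8) in WT striatum (log2 fold change 0.14, SE 0.032, adjusted p = 0.000384). Every Q140 animal was above every WT animal. Its other medians were 238 CPM for Q140 Pms1 null, 238 CPM for Q140 Pms1 het, 229.8 CPM for Pms1 null and 228 CPM for Pms1 het striatum. Syt5, a sensor found on dense-core vesicles, also rose, with 139 to 161 CPM (median 145) in Q140 striatum, against 127 to 144 CPM (median 134) in WT striatum (log2 fold change 0.13, SE 0.029, adjusted p = 0.000469), and 4 Q140 animals lay above the WT range. Syt3 did not pass the test (change -0.045 on the log2 scale, SE 0.039, adjusted p = 0.419).

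Among the synaptotagmins that do not bind calcium, Syt12 stood out. Syt12, a vesicle protein phosphorylated by protein kinase A, lay at 42.5 to 48.9 CPM (median 46.0) in Q140 striatum, against 53.3 to 62.6 CPM (median 57.2) in WT striatum (log2 fold change -0.33, SE 0.043, adjusted p = 3.03e-08). The groups did not overlap. The remaining genotypes had medians of 49.0 CPM for Q140 Pms1 null, 48.0 CPM for Q140 Pms1 het, 54.1 CPM for Pms1 null and 53.7 CPM for Pms1 het striatum, and the gene overlaps A930001C03Rik on the opposite strand. Syt16, a widely expressed relative, lay at 37.2 to 47.3 CPM (median 41.2) in Q140 striatum, against 46.8 to 52.4 CPM (median 49.8) in WT striatum (log2 fold change -0.25, SE 0.039, adjusted p = 1.18e-06), with 7 of 8 Q140 animals below the WT range. Medians elsewhere in striatum were 41.8 CPM for Q140 Pms1 null, 40.8 CPM for Q140 Pms1 het, 44.8 CPM for Pms1 null and 47.5 CPM for Pms1 het striatum. Syt14, a relative of Syt16, lay at 44.9 to 55.1 CPM (median 49.3) in Q140 striatum, against 51.3 to 66.3 CPM (median 54.8) in WT striatum (log2 fold change -0.21, SE 0.052, adjusted p = 0.00163), with overlapping ranges. Among the other genotypes, medians were 53.2 CPM for Q140 Pms1 null, 51.7 CPM for Q140 Pms1 het, 58.6 CPM for Pms1 null and 56.3 CPM for Pms1 het striatum. Syt11, a brake on membrane retrieval, differed little, with 679 to 731 CPM (median 708) in Q140 striatum, against 712 to 757 CPM (median 743) in WT striatum (log2 fold change -0.068, SE 0.02, adjusted p = 0.00558). On the FPKM scale, where the median shift over all genes was 0.073, its log2 fold change was 0.0060 (limma's adjusted p = 0.809), so its sign depends on the scaling. Syt4, Syt13 and Syt17 did not pass the test, with log2 fold changes of -0.028, -0.032 and -0.064.

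Cplx2 fell while its partners did not pass the test. Cplx2 (ENSMUSG00000025867, chromosome 13, 54371349 to 54383917, + strand), which clamps and promotes SNARE-driven fusion, lay at 1666 to 1901 CPM (median 1805) in Q140 striatum, against 1990 to 2335 CPM (median 2141) in WT striatum (log2 fold change -0.26, SE 0.032, adjusted p = 3.31e-09). The ranges stood apart. Its other medians were 1972 CPM for Q140 Pms1 null, 1866 CPM for Q140 Pms1 het, 2095 CPM for Pms1 null and 2114 CPM for Pms1 het striatum. Cplx1 had a log2 fold change of -0.10 (SE 0.043, adjusted p = 0.0679), and 4 of the 8 Q140 animals lay below the WT range. Cplx3, at under 1 CPM in every striatal library, had a log2 fold change of 0.091 (SE 0.24, adjusted p = 0.817).

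The Munc13 genes moved in opposite directions. Unc13a (ENSMUSG00000034799, chromosome 8, 71624417 to 71671757, - strand), the priming factor of most forebrain synapses, lay at 307 to 377 CPM (median 319.5) in Q140 striatum, against 371 to 428 CPM (median 395) in WT striatum (log2 fold change -0.29, SE 0.044, adjusted p = 7.04e-07). Of the 8 Q140 animals 7 were below the WT range, and 1 reached into it. The remaining genotypes had medians of 351 CPM for Q140 Pms1 null, 322 CPM for Q140 Pms1 het, 361 CPM for Pms1 null and 389.8 CPM for Pms1 het striatum, and it overlaps Colgalt1 on the opposite strand. Unc13b (ENSMUSG00000028456, chromosome 4, 43058953 to 43264871, + strand), the Munc13-2 that gives synapses different short-term plasticity, lay at 31.7 to 36.4 CPM (median 33.1) in Q140 striatum, against 24.2 to 29.5 CPM (median 26.4) in WT striatum (log2 fold change 0.35, SE 0.043, adjusted p = 4.86e-09). All Q140 animals were above all WT animals. Medians elsewhere in striatum were 30.9 CPM for Q140 Pms1 null, 31.0 CPM for Q140 Pms1 het, 26.8 CPM for Pms1 null and 27.6 CPM for Pms1 het striatum. On the FPKM scale Unc13b was the weaker of the pair in WT striatum, at 1.14 ± 0.081 FPKM (SD, n = 8). Unc13c did not pass the test, with 264 to 351 CPM (median 316) in Q140 striatum, against 308 to 372 CPM (median 335) in WT striatum (change -0.14 on the log2 scale, SE 0.06, adjusted p = 0.0818).

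Of the RIM genes 1 changed. Rims3, a short RIM that holds only the C-terminal part of the longer proteins, lay at 84.9 to 96.7 CPM (median 90.0) in Q140 striatum, against 100.4 to 113 CPM (median 109) in WT striatum (log2 fold change -0.26, SE 0.029, adjusted p = 3.20e-10). The groups did not overlap. Among the other genotypes, medians were 91.6 CPM for Q140 Pms1 null, 92.8 CPM for Q140 Pms1 het, 103 CPM for Pms1 null and 105 CPM for Pms1 het striatum. Rims1, Rims2 and Rims4 did not pass the test, with log2 fold changes of -0.038, 0.048 and -0.095. Rab3b, a Rab3 isoform, rose, with 34.3 to 44.5 CPM (median 38.3) in Q140 striatum, against 30.4 to 39.7 CPM (median 34.1) in WT striatum (log2 fold change 0.18, SE 0.059, adjusted p = 0.0177). Most of its values overlapped, and 3 Q140 animals lay above the WT range. Its other medians were 41.2 CPM for Q140 Pms1 null, 38.6 CPM for Q140 Pms1 het, 39.1 CPM for Pms1 null and 35.6 CPM for Pms1 het striatum. Rab3a, Rab3c and Rab3d did not pass the test, with log2 fold changes of 0.038, -0.042 and -0.10.

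**Figure D2:**
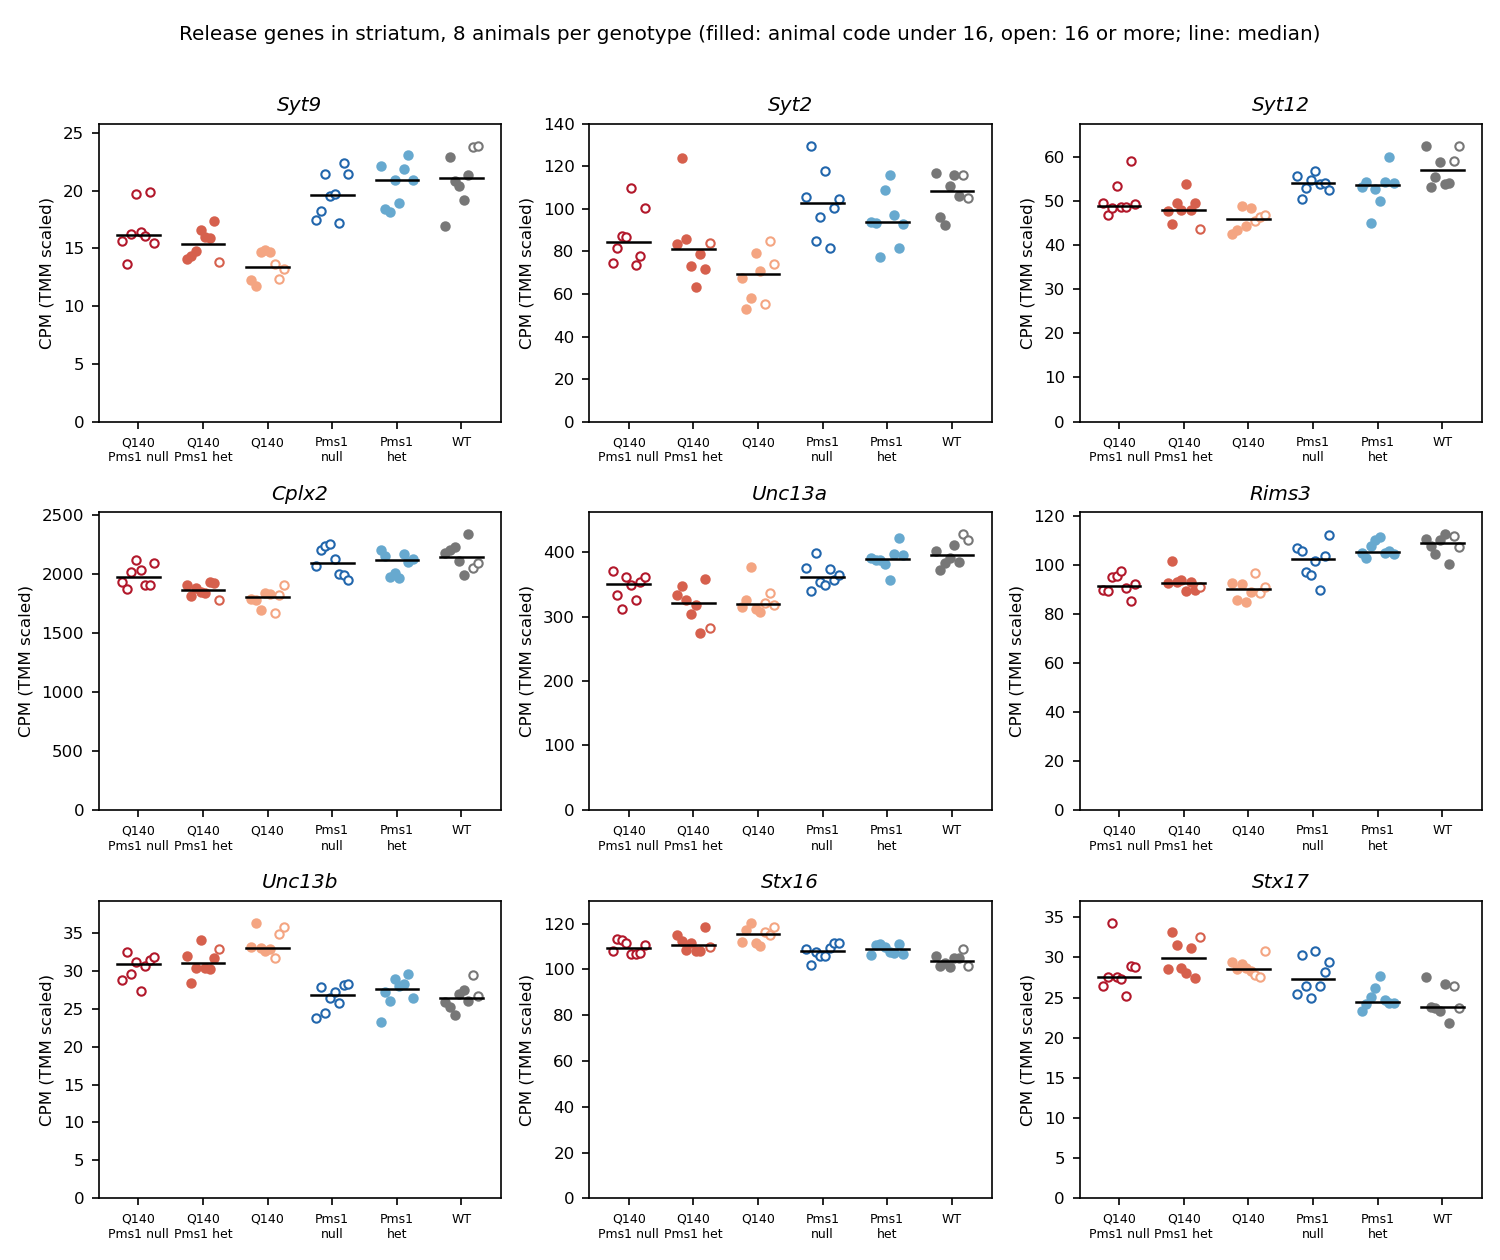
CPM (TMM scaled, axes start at 0) of 9 release genes in striatum, 1 point per animal, 8 animals for each of the 6 genotypes, with the median as a line; filled points are animals whose code starts with a number under 16, open points 16 or more. In Syt9, Syt2, Syt12, Cplx2 and Rims3 all Q140 animals lie below all WT animals, in Unc13b, Stx16 and Stx17 all lie above, and in Unc13a 1 Q140 animal reaches into the WT range.

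The syntaxins split by place. Stx4a, a plasma membrane syntaxin of regulated secretion that overlaps another gene on the opposite strand, had a log2 fold change of -0.094 (SE 0.036, adjusted p = 0.0414). Stx3, which serves polarized secretion and dendrites, had a log2 fold change of -0.17 (SE 0.059, adjusted p = 0.0258). The ranges of Stx3 and Stx4a overlapped. With limma on FPKM the changes of Stx3 and Stx4a missed the threshold. Stx1a and Stx2 did not pass, with log2 fold changes of 0.069 and -0.022.

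Stx17 and Stx16 led the syntaxins that rose. Stx17 (ENSMUSG00000061455, chromosome 4, 48124915 to 48186507, + strand), which fuses autophagosomes with lysosomes, lay at 27.5 to 30.7 CPM (median 28.6) in Q140 striatum, against 21.8 to 27.5 CPM (median 23.8) in WT striatum (log2 fold change 0.23, SE 0.046, adjusted p = 8.79e-05). Every Q140 animal was above every WT animal. Medians elsewhere in striatum were 27.6 CPM for Q140 Pms1 null, 29.9 CPM for Q140 Pms1 het, 27.4 CPM for Pms1 null and 24.5 CPM for Pms1 het striatum. Stx16, a SNARE of the trans-Golgi network, lay at 110 to 120.4 CPM (median 116) in Q140 striatum, against 101 to 109 CPM (median 104) in WT striatum (log2 fold change 0.15, SE 0.022, adjusted p = 3.10e-07), again with no overlap. Among the other genotypes, medians were 109 CPM for Q140 Pms1 null, 111 CPM for Q140 Pms1 het, 108 CPM for Pms1 null and 109 CPM for Pms1 het striatum. Stx18, a SNARE of the endoplasmic reticulum that overlaps Nsg1 on the opposite strand, lay at 17.3 to 20.8 CPM (median 19.4) in Q140 striatum, against 16.1 to 18.7 CPM (median 17.8) in WT striatum (log2 fold change 0.14, SE 0.037, adjusted p = 0.00216), and 7 Q140 animals were above the WT range. Its other medians were 18.8 CPM for Q140 Pms1 null, 18.8 CPM for Q140 Pms1 het, 17.7 CPM for Pms1 null and 17.4 CPM for Pms1 het striatum. Stx7, a SNARE of late endosomes, rose as well (log2 fold change 0.11, SE 0.022, adjusted p = 8.84e-05), while Stx6, a SNARE between Golgi and endosomes, fell (log2 fold change -0.12, SE 0.033, adjusted p = 0.00475). On the FPKM scale the change of Stx6 missed the threshold (log2 fold change -0.042, limma's adjusted p = 0.327). Stx5a, Stx8 and Stx12 did not pass the test, with log2 fold changes of 0.027, -0.047 and 0.046.

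Among the syntaxin-binding proteins 2 rose. Stxbp6, also called amisyn, an inhibitor of SNARE assembly, lay at 44.3 to 53.9 CPM (median 50.0) in Q140 striatum, against 38.5 to 44.5 CPM (median 43.1) in WT striatum (log2 fold change 0.21, SE 0.069, adjusted p = 0.0167). Of the 8 Q140 animals 7 were above the WT range. The remaining genotypes had medians of 46.7 CPM for Q140 Pms1 null, 50.6 CPM for Q140 Pms1 het, 38.1 CPM for Pms1 null and 40.5 CPM for Pms1 het striatum. Stxbp2, a syntaxin-binding protein known from degranulation of immune cells, lay at 62.7 to 74.7 CPM (median 70.1) in Q140 striatum, against 56.8 to 68.9 CPM (median 59.5) in WT striatum (log2 fold change 0.19, SE 0.041, adjusted p = 0.000187), with 5 of 8 above the WT range. Medians elsewhere in striatum were 70.5 CPM for Q140 Pms1 null, 67.9 CPM for Q140 Pms1 het, 71.5 CPM for Pms1 null and 62.0 CPM for Pms1 het striatum. Stxbp3, Stxbp4 and Stxbp5 did not pass the test, with log2 fold changes of 0.0094, 0.093 and 0.056.

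The SV2, synapsin and VAMP genes changed little. Sv2a lay at 384 to 418 CPM (median 404) in Q140 striatum, against 368 to 392 CPM (median 379.6) in WT striatum (log2 fold change 0.10, SE 0.022, adjusted p = 0.000642), and Sv2b and Sv2c did not pass, with log2 fold changes of -0.051 and -0.015. Syn2, a synapsin, lay at 247 to 292 CPM (median 263) in Q140 striatum, against 233 to 256 CPM (median 242) in WT striatum (log2 fold change 0.11, SE 0.029, adjusted p = 0.00221), and 6 of its Q140 animals were above the WT range. Syn1 and Syn3 did not pass, with log2 fold changes of 0.06 and 0.088. Vamp2, the vesicle SNARE, lay at 723 to 774 CPM (median 738) in Q140 striatum, against 725 to 779 CPM (median 749.7) in WT striatum (log2 fold change -0.023, SE 0.024, adjusted p = 0.504), and Vamp1 had a log2 fold change of 0.10 with a wide spread (SE 0.14, adjusted p = 0.627). Of the other VAMPs, Vamp7, a SNARE of lysosomes and of an atypical vesicle pool, rose (log2 fold change 0.10, SE 0.033, adjusted p = 0.0152), and Vamp3, Vamp4, Vamp5 and Vamp8 lay between -0.053 and -0.011 without passing.

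The knock-in was also compared within each Pms1 genotype, in animals that Q140 against WT does not use. Between Q140 Pms1 het and Pms1 het striatum, 24 of the 61 genes passed, 13 higher and 11 lower, where 24.9% of all genes passed, 12.8% higher and 12.1% lower, and 28.3% of genes of that level; with limma on FPKM, where the median shift over all genes was 0.051, it was 25 higher and 7 lower. Of the 16 genes lower in Q140 against WT, 15 had the same sign here and 9 passed again, and of the 13 higher genes 13 had the same sign and 9 passed. Over all genes the same sign was found for 96.3% of the lower and 94.3% of the higher genes, with 60.4% and 55.6% passing again. Between Q140 Pms1 null and Pms1 null striatum, 9 of the 61 passed, 5 higher and 4 lower, where 11.1% of all genes passed, 5.59% higher and 5.47% lower, and 12.7% of genes of that level; with limma on FPKM, where the median shift over all genes was 0.023, it was 15 higher and 2 lower. Here 12 of the 16 lower and 13 of the 13 higher genes had the same sign, against 86.7% and 85.4% over all genes. Of the lower genes 4 and of the higher genes 5 passed again, against 27.9% and 25.6% over all genes.

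The cell type markers moved in these comparisons as well. Those of medium spiny neurons summed to 8095 to 9831 CPM in Q140 Pms1 het striatum (median 8659), against 11600 to 13790 CPM in Pms1 het striatum (median 13090), and 9 of 9 were lower. They summed to 9098 to 11000 CPM in Q140 Pms1 null striatum (median 10610), against 11700 to 14080 CPM in Pms1 null striatum (median 13140), and 8 of 9 were lower. Between Q140 Pms1 het and Pms1 het striatum 2 of 5 microglia and 2 of 4 endothelial markers were also lower, and between Q140 Pms1 null and Pms1 null striatum 1 of 5 astrocyte and 1 of 5 oligodendrocyte markers. In the other lists no marker passed, and the part of these cell types in the results was not tested.

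The leading genes had the following values within each Pms1 genotype. For Syt9 the log2 fold change was -0.42 between Q140 Pms1 het and Pms1 het (SE 0.066, adjusted p = 2.24e-06) and -0.25 between Q140 Pms1 null and Pms1 null (SE 0.065, adjusted p = 0.00874). For Unc13b it was 0.20 with 1 Pms1 copy (SE 0.044, adjusted p = 0.000387) and 0.20 with none (SE 0.044, adjusted p = 0.00148). Rims3 fell in both, with log2 fold changes of -0.19 with 1 copy and -0.14 with none (adjusted p = 1.02e-06 and 0.000682). Syt2 passed in neither, at -0.20 and -0.25 (adjusted p = 0.156 and 0.11).

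**Figure D3:**
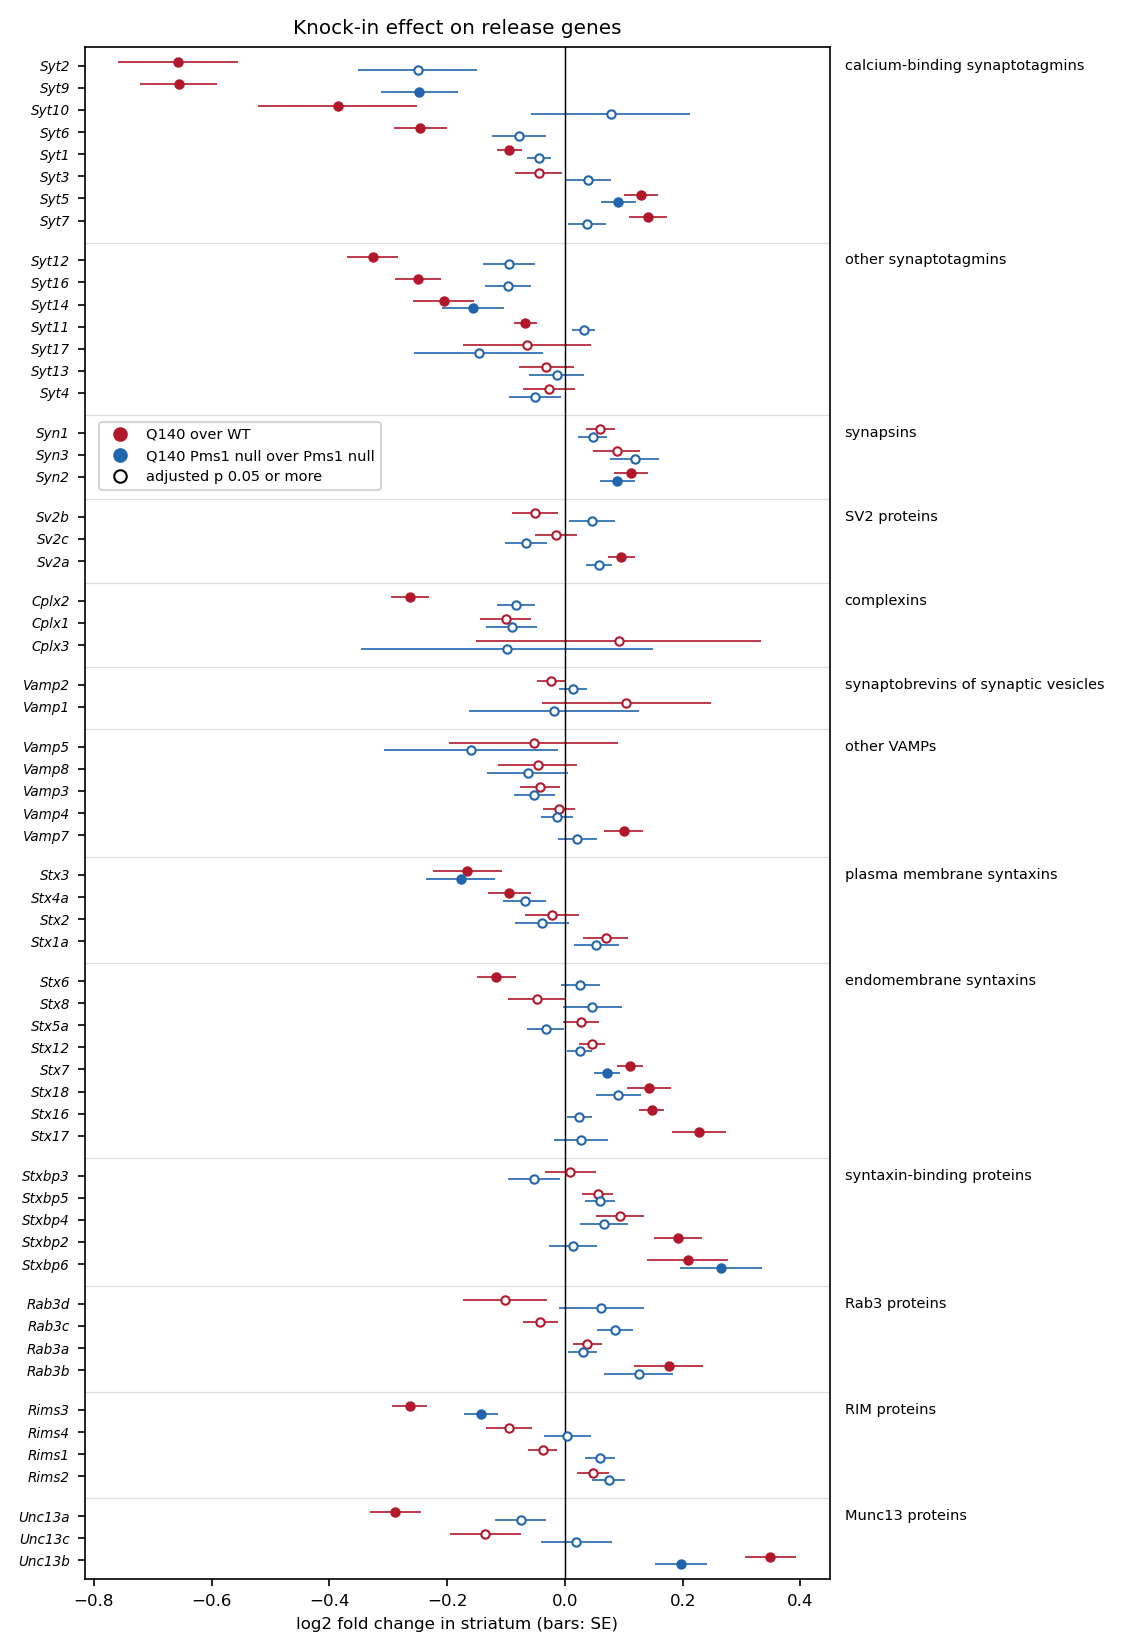
log2 fold change (horizontal, bars SE) of 59 of the 61 release genes in striatum, by role, for Q140 over WT (red) and Q140 Pms1 null over Pms1 null (blue), 8 animals a group; filled points passed the test. Syt2 and Syt9 reach -0.66 for Q140 over WT and -0.25 for Q140 Pms1 null over Pms1 null, and Unc13b 0.35 and 0.20.

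Knock-in animals without Pms1 differed from Q140 animals in 7 release genes, led by Syt2 and Syt9. Between Q140 Pms1 null and Q140 striatum, 7 of the 61 passed, 5 higher and 2 lower, where 7.1% of all genes passed, 5.07% higher and 2.03% lower, and 8.26% of genes of that level. This comparison and Q140 against WT share the Q140 animals, so the values are only given side by side. With limma on FPKM, where the median shift over all genes was -0.039, 10 passed, 3 higher and 7 lower.

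Syt9 lay at 13.6 to 19.9 CPM (median 16.1) in Q140 Pms1 null striatum, against 11.7 to 14.8 CPM (median 13.4) in Q140 striatum (log2 fold change 0.31, SE 0.066, adjusted p = 0.0015), with a WT median of 21.1 CPM. Syt2 lay at 73.5 to 110.1 CPM (median 84.3) in Q140 Pms1 null striatum, against 52.9 to 84.9 CPM (median 69.3) in Q140 striatum (log2 fold change 0.34, SE 0.1, adjusted p = 0.0319), with a WT median of 108 CPM. In both the groups overlapped, and the Q140 Pms1 null median lay between those of Q140 and WT. Cplx2 lay at 1868 to 2119 CPM (median 1972) in Q140 Pms1 null striatum, against 1666 to 1901 CPM (median 1805) in Q140 striatum (log2 fold change 0.15, SE 0.032, adjusted p = 0.00136), with a WT median of 2141 CPM. Syt12 lay at 46.9 to 59.2 CPM (median 49.0) in Q140 Pms1 null striatum, against 42.5 to 48.9 CPM (median 46.0) in Q140 striatum (log2 fold change 0.14, SE 0.044, adjusted p = 0.0386), with a WT median of 57.2 CPM. These too had overlapping ranges and an intermediate median. Unc13b fell, with 27.3 to 32.5 CPM (median 30.9) in Q140 Pms1 null striatum, against 31.7 to 36.4 CPM (median 33.1) in Q140 striatum (log2 fold change -0.15, SE 0.043, adjusted p = 0.0167) and a WT median of 26.4 CPM. Stx16 fell likewise, with 107 to 113 CPM (median 109) in Q140 Pms1 null striatum, against 110 to 120.4 CPM (median 116) in Q140 striatum (log2 fold change -0.07, SE 0.022, adjusted p = 0.0379) and a WT median of 104 CPM. No gene of the set had separate ranges in this comparison, where 0.873% of all genes had.

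The code of the animals differs between these groups, with 8 late codes in Q140 Pms1 null and 3 in Q140. With the late or early code in the fit, 3 of the 7 genes passed, namely Cplx2, Syt9 and Unc13b, where 5.03% of all genes passed. All 7 kept their sign, with log2 fold changes of 0.17 for Cplx2, 0.27 for Syt9 and -0.20 for Unc13b, and of 0.31 for Syt2, 0.12 for Syt12 and -0.077 for Stx16, whose adjusted p were 0.147, 0.193 and 0.0679. Within late codes alone, 8 animals against 3, none passed, and the share of all genes that passed in that fit was not counted. There edgeR gave Syt9 an adjusted p of 0.160, and the log2 fold changes were 0.32 for Syt9, 0.37 for Syt2, 0.13 for Cplx2 and -0.16 for Unc13b. Over all animals the log2 fold changes were 0.31, 0.34, 0.15 and -0.15 in the same order. Without the 4 libraries that carry cortical markers, chosen after seeing the data, 6 passed, and Syt12 and Stx16 missed the threshold (adjusted p = 0.117 and 0.0796). The 9 markers of medium spiny neurons summed to 9098 to 11000 CPM in Q140 Pms1 null striatum (median 10610), against 7660 to 8846 CPM in Q140 striatum, all 9 higher, and their part was not tested.

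The knock-in effect itself was tested for a difference between the Pms1 null and the WT background. In 7 of the 61 genes it differed, 6 with a higher and 1 with a lower value on the Pms1 null background, where 5.05% of all genes differed, 3.37% higher and 1.68% lower, and 5.85% of genes of that level. In Syt9 the effect was -0.25 on the Pms1 null background and -0.66 on the WT background (difference of log2 fold changes 0.41, SE 0.092, adjusted p = 0.00413). In Syt12 it was -0.10 on the Pms1 null and -0.33 on the WT background (difference of log2 fold changes 0.23, SE 0.061, adjusted p = 0.0162), and in Cplx2 -0.084 on the Pms1 null and -0.26 on the WT background (difference of log2 fold changes 0.18, SE 0.045, adjusted p = 0.0107). The knock-in effects on these genes were nearer to 0 on the Pms1 null background. In Unc13a the effect was -0.075 on the Pms1 null background and -0.29 on the WT background (difference of log2 fold changes 0.21, SE 0.062, adjusted p = 0.0309). In Syt11 it was 0.032 on the Pms1 null and -0.068 on the WT background (difference of log2 fold changes 0.10, SE 0.028, adjusted p = 0.0218). In Stx16, which rose on the WT background, it was 0.025 without Pms1 and 0.15 with it (difference of log2 fold changes -0.12, SE 0.031, adjusted p = 0.0102). Unc13b (difference of log2 fold changes -0.15, SE 0.061, adjusted p = 0.148) and Syt2 (difference of log2 fold changes 0.41, SE 0.14, adjusted p = 0.0903) missed the threshold here. These differences also draw on the change from WT to Pms1 null. In Unc13a the log2 fold change was 0.082 for Q140 Pms1 null against Q140 and -0.13 for Pms1 null against WT, neither passing. Syt11 passed for Pms1 null against WT, at -0.079, and did not pass for Q140 Pms1 null against Q140. With the late or early code in the fit the difference between the backgrounds passed in 7 genes, but that fit could hardly change it. All animals of both Pms1 null groups have late codes, so the code bears on this test only through the 3 Q140 and 2 WT animals with one. Whether the knock-in effect differs with the code was not tested. With limma on FPKM, where the median shift over all genes was -0.05, 7 passed, 3 higher and 4 lower. In the same test 9 of 9 medium spiny neuron, 2 of 5 microglia and 1 of 4 endothelial markers had a higher value on the Pms1 null background and no marker of the other lists passed, and their part was not tested.

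Loss of 1 copy gave no call. Between Q140 Pms1 het and Q140 striatum edgeR called none of the 61 genes at an adjusted p below 0.05, where 0% of all genes passed; 7 had an unadjusted p below 0.05, and DESeq2 called 0. Between Pms1 het and WT striatum edgeR called none either, where 0% of all genes passed; 9 had an unadjusted p below 0.05, and DESeq2 called 0. Syt9 had a median of 15.4 CPM in Q140 Pms1 het striatum and 13.4 CPM in Q140 striatum, with overlapping ranges.

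Without the knock-in, Pms1 null animals differed from WT animals in 8 release genes. Between Pms1 null and WT striatum 8 of the 61 passed, 2 higher and 6 lower, where 7.91% of all genes passed, 4.01% higher and 3.9% lower, and 9.16% of genes of that level. Stxbp2 lay at 59.4 to 75.7 CPM (median 71.5) in Pms1 null striatum, against 56.8 to 68.9 CPM (median 59.5) in WT striatum (log2 fold change 0.21, SE 0.041, adjusted p = 0.00145). Stx17 lay at 25.0 to 30.7 CPM (median 27.4) in Pms1 null striatum, against 21.8 to 27.5 CPM (median 23.8) in WT striatum (log2 fold change 0.17, SE 0.046, adjusted p = 0.0149). The ranges overlapped in both. Syt6 lay at 164 to 198 CPM (median 178) in Pms1 null striatum, against 175 to 219.7 CPM (median 202) in WT striatum (log2 fold change -0.15, SE 0.045, adjusted p = 0.0316), and Syt16 at 41.9 to 50.6 CPM (median 44.8) in Pms1 null striatum, against 46.8 to 52.4 CPM (median 49.8) in WT striatum (log2 fold change -0.13, SE 0.039, adjusted p = 0.0316). Rab3c, Rims3 and Syt11 also fell, with values of -0.10, -0.091 and -0.079 on the log2 scale (adjusted p = 0.0302, 0.0431 and 0.00869). Their ranges in Pms1 null and WT striatum overlapped as well. All 8 Pms1 null animals have late codes, against 2 WT animals, and with the code in the fit 1 gene passed, Stxbp2 (log2 fold change 0.17, adjusted p = 0.0493), where 2.5% of all genes passed. In the same fit the log2 fold changes were 0.16 for Stx17, -0.16 for Syt6, -0.11 for Syt16, -0.10 for Rims3, -0.071 for Rab3c and -0.069 for Syt11, with larger errors than without the code and adjusted p of 0.106 to 0.321. All 8 genes kept their sign. Without the libraries that carry cortical markers, 2 of them Pms1 null, 11 passed. Microglia markers summed to 251.7 to 266 CPM in Pms1 null striatum, against 267 to 286 CPM in WT striatum, with 2 of 5 lower, and endothelial markers to 114 to 124 CPM in Pms1 null striatum, against 126 to 138 CPM in WT striatum, with 1 of 4 lower. Both sums stood apart between the groups, no marker of the other lists passed, and their part was not tested.

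In cortex Stxbp2 was among the genes that differed as well. Between Pms1 null and WT cortex 5 of the 61 passed, 3 higher and 2 lower, where 9.58% of all genes passed, 5.31% higher and 4.26% lower, and 10.8% of genes of that level. Stxbp2 lay at 37.5 to 51.5 CPM (median 48.2) in Pms1 null cortex, against 30.0 to 44.4 CPM (median 36.6) in WT cortex (log2 fold change 0.37, SE 0.075, adjusted p = 0.00219). Of the 8 Pms1 null animals 7 lay above all WT animals, and 1 lay within the WT range. The WT animals with a late code, at 40.2 and 44.4 CPM, were the 2 highest of WT. The Q140 Pms1 null cortex had a median of 49.8 CPM and the Q140 cortex of 39.8 CPM. Syt14 lay at 31.8 to 39.4 CPM (median 34.7) in Pms1 null cortex, against 24.9 to 33.2 CPM (median 31.2) in WT cortex (log2 fold change 0.21, SE 0.048, adjusted p = 0.00504). Syt5 lay at 104 to 121 CPM (median 111) in Pms1 null cortex, against 116 to 139 CPM (median 121) in WT cortex (log2 fold change -0.15, SE 0.032, adjusted p = 0.0026). Their ranges overlapped. Stx6 lay at 85.5 to 93.2 CPM (median 89.9) in Pms1 null cortex, against 91.2 to 106 CPM (median 94.4) in WT cortex (log2 fold change -0.10, SE 0.026, adjusted p = 0.0139), and Syt3, a calcium-binding synaptotagmin of receptor trafficking, at 53.6 to 60.3 CPM (median 56.4) in Pms1 null cortex, against 50.0 to 55.8 CPM (median 53.1) in WT cortex (log2 fold change 0.093, SE 0.031, adjusted p = 0.0486). With the late or early code in the fit 2 of the 61 genes passed, where 1.57% of all genes passed. Only 1 of these was among the 5 genes that passed without the code, namely Syt14 (log2 fold change 0.22, adjusted p = 0.0475). Stxbp2 then had a log2 fold change of 0.24 (adjusted p = 0.139), Syt5 of -0.12, Syt3 of 0.10 and Stx6 of -0.089 (adjusted p = 0.095, 0.147 and 0.13). Endothelial markers summed to 100.1 to 122 CPM in Pms1 null cortex, against 119.9 to 150.1 CPM in WT cortex, with 3 of 4 lower, and microglia markers to 174 to 201 CPM in Pms1 null cortex, against 184 to 213 CPM in WT cortex, with 2 of 5 lower. Of the other lists, 1 of 9 medium spiny neuron, 1 of 5 cortical glutamatergic, 1 of 5 astrocyte and 1 of 6 interneuron markers were lower. The part of these cell types in the result was not tested.

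**Figure D4:**
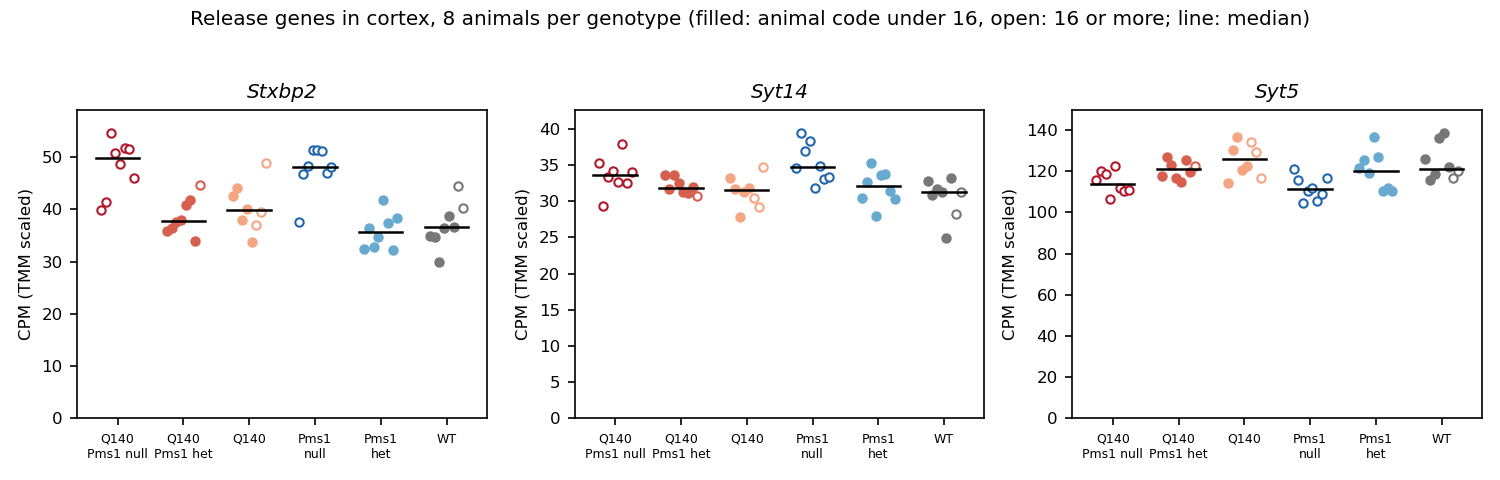
CPM (TMM scaled, axes start at 0) of Stxbp2, Syt14 and Syt5 in cortex, 1 point per animal, 8 animals for each of the 6 genotypes, with the median as a line; filled points are animals whose code starts with a number under 16, open points 16 or more. The Pms1 null median is above the WT median in Stxbp2 (48.2 and 36.6 CPM) and Syt14 (34.7 and 31.2 CPM) and below it in Syt5 (111 and 121 CPM).

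The knock-in gave no call among the release genes of the cortex. Between Q140 and WT cortex edgeR called none of the 61 genes, where 0.0428% of all 18711 genes tested passed, 0.0267% higher and 0.016% lower, and 0.0444% of genes of that level; 3 had an unadjusted p below 0.05, and DESeq2 called 0. Between Q140 Pms1 null and Q140 cortex edgeR called none, where 0.0107% of all genes passed, all of them higher, and 0.0127% of genes of that level; 14 had an unadjusted p below 0.05, and DESeq2 called 2. Syt9 lay at 3.90 to 6.16 CPM (median 5.17) in Q140 cortex, against 4.29 to 6.36 CPM (median 5.14) in WT cortex (log2 fold change 0.036, SE 0.082, adjusted p = 0.971). Cplx2 lay at 1269 to 1486 CPM (median 1344) in Q140 cortex, against 1189 to 1562 CPM (median 1372) in WT cortex (log2 fold change -0.014, SE 0.038, adjusted p = 0.978). Both had overlapping ranges, unlike in striatum.

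The difference between the tissues was tested directly. The knock-in effect in striatum minus that in cortex passed for 15 of the 61 genes, 3 higher and 12 lower, where 13.3% of all genes passed, 4.95% higher and 8.32% lower, and 16% of genes of that level. For Syt2 the effect was -0.66 in striatum and 0.079 in cortex (difference of log2 fold changes -0.75, SE 0.12, adjusted p = 7.96e-07). For Syt9 it was -0.66 in striatum and 0.036 in cortex (difference of log2 fold changes -0.71, SE 0.1, adjusted p = 1.13e-07), and for Syt10 -0.39 in striatum and 0.32 in cortex (difference of log2 fold changes -0.73, SE 0.21, adjusted p = 0.0111). The 3 largest differences were thus in calcium-binding synaptotagmins. For Syt10 the cortical effect did not pass, and the gene was weakly counted there, at 1.23 to 2.19 CPM in WT cortex. Syt12, Rims3, Cplx2, Syt14, Unc13a, Syt16, Cplx1, Syt1 and Syt11 also had a lower value in striatum, with differences of -0.33 to -0.094 on the log2 scale. For Unc13b, Stx17 and Stx16 the value in striatum was higher, with differences of 0.28, 0.19 and 0.12. Cplx1 passed this test without passing in either tissue alone. With the animal as a replicate block, since both tissues came from the same animals, 21 of the 61 genes passed. The same difference was below 0 in 9 of 9 medium spiny neuron, 4 of 5 microglia, 1 of 4 endothelial and 1 of 4 thalamic or pallidal markers and above 0 in 1 of 5 cortical glutamatergic markers, by the same test, and their part was not tested.

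**Figure D5:**
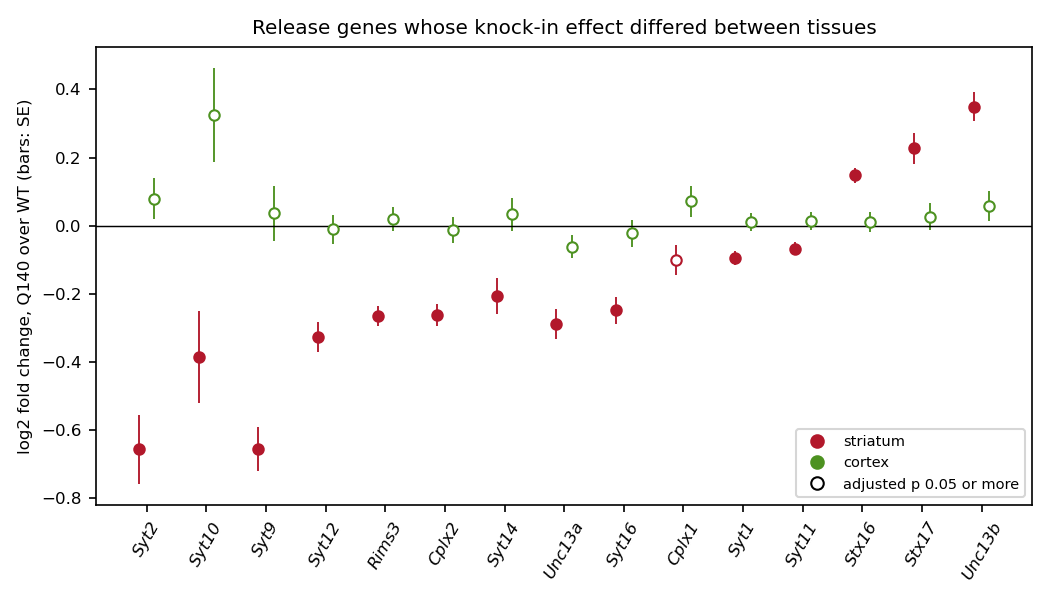
log2 fold change of Q140 over WT (vertical, bars SE) in striatum (red) and cortex (green) for the 15 release genes whose knock-in effect differed between the tissues, 8 animals a group; filled points passed the test within their tissue. Syt2 and Syt9 reach -0.66 in striatum and 0.079 and 0.036 in cortex, and no cortical value is filled.

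Other genes of the release pathway were read from 6 lists for the striatal comparison of Q140 with WT, with the same background of 31.3%. Of the 8 genes of the SNAP-25 family and SNARE disassembly, 1 rose and 2 fell, with a list median of 0.0051 on the log2 scale. Napa, the alpha-SNAP adaptor that helps take used SNARE complexes apart, fell (log2 fold change -0.22, SE 0.023, adjusted p = 8.48e-11), Snap25, a plasma membrane SNARE, fell (log2 fold change -0.12, SE 0.024, adjusted p = 0.000108), and Snap47 rose (log2 fold change 0.093, SE 0.023, adjusted p = 0.0014). Of the 10 active zone scaffolds, 3 rose and 2 fell, with a median of 0.029. Bsn, which encodes Bassoon, fell (log2 fold change -0.23, SE 0.036, adjusted p = 1.01e-06), Ppfia2, a liprin, rose (log2 fold change 0.23, SE 0.036, adjusted p = 7.35e-07), and so did Rimbp2, which links RIM to calcium channels (log2 fold change 0.18, SE 0.055, adjusted p = 0.00834). Both lists held genes that rose and genes that fell.

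The other 4 lists also held genes of either direction. Of the 13 priming factors, sensors and Rab3 partners, 2 rose and 2 fell, with a median of 0.011; Rab3ip, a Rab exchange factor, fell (log2 fold change -0.26, SE 0.059, adjusted p = 0.000479), Nrxn3, a neurexin, fell (log2 fold change -0.17, SE 0.032, adjusted p = 3.60e-05), and Cadps, a priming factor of dense-core vesicles, rose (log2 fold change 0.15, SE 0.039, adjusted p = 0.00142). Of the 13 vesicle membrane proteins and transporters, 1 rose and 2 fell, with a median of -0.060. Syp, which encodes synaptophysin, rose (log2 fold change 0.38, SE 0.028, adjusted p = 7.61e-16), and Slc17a6, a glutamate transporter also listed as a thalamic marker, fell with a wide error (log2 fold change -0.92, SE 0.33, adjusted p = 0.026). Of the 12 recycling genes, 2 rose and 2 fell, with a median of -0.0019; Picalm fell (log2 fold change -0.11, SE 0.024, adjusted p = 0.000366), Bin1 rose (log2 fold change 0.10, SE 0.033, adjusted p = 0.0141), and Synj1 rose (log2 fold change 0.065, SE 0.021, adjusted p = 0.0164). Of the 6 presynaptic calcium channel genes, 2 rose and 1 fell, with a median of 0.026. The channel subunits Cacna2d3 fell (log2 fold change -0.35, SE 0.034, adjusted p = 6.34e-12), Cacna2d1 rose (log2 fold change 0.25, SE 0.032, adjusted p = 6.89e-09), and Cacna1b, the pore of N-type channels, rose (log2 fold change 0.13, SE 0.031, adjusted p = 0.00113).

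In Q140 Pms1 null against Q140 striatum, 7 of the 62 pathway genes passed, 5 higher and 2 lower, where 7.1% of all genes passed and 8.26% of genes of that level. The log2 fold changes were 0.14 for Napa, 0.077 for Snap25, 0.13 for Bsn and 0.18 for Cacna2d3, all higher in Q140 Pms1 null. Synpr, a synaptophysin relative, also rose, by 0.16, and Syp and Ppfia2 fell, with log2 fold changes of -0.17 and -0.16. With the late or early code in the fit all 7 kept their sign and 5 of them passed, while Bsn and Snap25 did not (log2 fold changes 0.13 and 0.081, adjusted p = 0.0677 and 0.0965). In cortex no gene of the 6 lists passed for Q140 against WT.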

How the data were processed

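RNA-seq of striatum and cortex from 48 mice was deposited by the authors as gene counts and as FPKM, 1 column for each of the 96 libraries. The count values were deposited as whole reads per gene without scaling. The FPKM values were scaled by the authors for gene length and library size. The submitters' processing notes name STAR 2.7.5c, SAMtools 1.10, HTSeq 0.12.3 and the builds GRCm38 and mm10, with no role or order. Coordinates came from GENCODE M21, where 48435 of 48795 gene IDs matched, and promoters from RefSeq.

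Counts were fitted by tissue with edgeR 4.0.16 in R 4.3.3 (TMM scaling, filterByExpr, quasi-likelihood test, sex as covariate, all 6 genotypes in the fit). P-values were adjusted by Benjamini and Hochberg over all genes tested, 18890 in striatum, 18711 in cortex and 19723 across both, and genes with an adjusted p below 0.05 passed. Alternatives were RLE scaling, no filter, DESeq2 1.42.0, a late or early animal code (first number 16 or more), code groups alone, limma 3.58.1 on log2(FPKM + 0.1) and the animal as a block. The edgeR fit of Q140 against WT striatum was tested on simulated counts, and the other fits were not. The members and lists were chosen with earlier results of these data known. Values were given in full for the leading called members of each comparison, the tissue extremes and the most abundant member of each family, and for up to 3 called genes of each pathway list; the values of a few of these genes are not reported here, while the counts include them.

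Both tissues came from the same animals, per the labels. Deviations of the 48 pairs from the means of genotype, sex and tissue correlated with a median of 0.24 and a lowest value of 0.0553, and 46 were above 0.1. Of the 48 animals, 41 correlated best with their own other tissue.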

Additional observations from a re-analysis of the deposited data

Results flagged for a closer look

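In 18 of 232 groups of 8 animals examined, 1 animal stood farther from the others than the 95% limit of Dixon's test, and chance gives about 1 in 20 groups. In Q140 Pms1 null striatum these included Cplx3 at 0.952 CPM, Rab3b at 50.8 CPM, Stx17 at 34.3 CPM and Vamp1 at 73.2 CPM. In Q140 Pms1 het striatum they were Rims3 at 102 CPM, Syt10 at 18.4 CPM, Syt17 at 6.91 CPM, Syt2 at 124 CPM and Vamp1 at 101 CPM. In Q140 striatum they were Syt7 at 268 CPM, Unc13a at 377 CPM and Vamp2 at 774 CPM. In Pms1 null animals they were Stxbp2 at 59.4 CPM in striatum and at 37.5 CPM in cortex. In Pms1 het striatum Syt1 stood at 1012 CPM, and in WT cortex they were Stx1a at 365 CPM and Syt6 at 13.7 CPM.

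The knock-in effect in striatum differed between the Pms1 null and the WT background in 7 genes, by edgeR with Benjamini-Hochberg adjustment. The differences of log2 fold changes included 0.41 for Syt9, 0.23 for Syt12, 0.21 for Unc13a, 0.18 for Cplx2, 0.10 for Syt11 and -0.12 for Stx16.

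The knock-in effect in striatum minus that in cortex passed the same test in 15 genes. It was -0.75 for Syt2, -0.73 for Syt10, -0.71 for Syt9, -0.33 for Syt12, -0.30 for Rims3, -0.26 for Cplx2, -0.25 for Syt14, -0.24 for Unc13a and -0.24 for Syt16. It was -0.19 for Cplx1, -0.12 for Syt1, -0.094 for Syt11, 0.12 for Stx16, 0.19 for Stx17 and 0.28 for Unc13b.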

How the results depend on the processing

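Counts of release genes that passed stayed within 1.5 times the reported ones under RLE scaling in every comparison. For Q140 Pms1 null against Q140 striatum, where 7 passed, there were 3 without the filter on low counts, 3 with the late or early code in the fit and 0 within late codes alone. For Pms1 null against WT striatum, where 8 passed, there were 5 without the filter, 1 with the code in the fit and 5 with limma on FPKM. For Q140 Pms1 null against Pms1 null striatum, where 9 passed, there were 4 without the filter and 17 with limma on FPKM. Tested between the Pms1 null and WT backgrounds, the knock-in effect gave 12 with DESeq2, against 7. In cortex, DESeq2 gave 2 for Q140 Pms1 null against Q140, against 0, and the code in the fit gave 2 for Pms1 null against WT, against 5. Only 1 gene passed in both of these last fits. The causes were not tested. Apart from the code in the fit, the share of all genes that passed was not counted under these alternatives. Single genes that passed in a reported comparison were followed through the alternatives. Of these values, 746 kept direction and call, 90 lost the call and 1 reversed. The reversed value was Syt11 for Q140 against WT striatum with limma on FPKM (0.0060), where the median shift over all genes was 0.073. Genes that passed only under an alternative are not in this tally. For Q140 against WT striatum, 33 passed with limma on FPKM, and 22 of them were among the 29 reported. With the animal as a replicate block, 55 genes passed between WT striatum and WT cortex, against 53, and 21 for the knock-in effect set between tissues, against 15, and no reported call was lost. Without the 4 libraries with cortical markers, an alternative chosen after seeing the data, no count moved by more than 1.5 times. A mean of at least 0.5 CPM would give 62 members and 1 of 5 CPM 59. Groups of 8 animals limit what can be seen for weakly counted genes such as Cplx3 and Vamp5 in striatum.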

Other observations

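Vamp1, Syt2 and Syt17 varied between striatal animals together with Pvalb, a marker of fast-spiking interneurons. The relation was noticed in these libraries and the genes were picked for it, so it is given as a description without p-values. Pvalb lay at 4.94 to 13.9 CPM in Q140 Pms1 null, 5.22 to 21.2 CPM in Q140 Pms1 het, 3.11 to 9.64 CPM in Q140, 5.49 to 11.2 CPM in Pms1 null, 6.23 to 10.1 CPM in Pms1 het and 4.65 to 9.23 CPM in WT striatum (8 animals each). Over the 48 striatal libraries, as deviations from the genotype means, Vamp1 correlated with Pvalb with Pearson's r = 0.88 and Spearman's rho = 0.889, and r was 0.875 without the 2 libraries farthest in Pvalb. Within early codes r was 0.917 (n = 26) and within late codes 0.863 (n = 22). For Syt2, r was 0.713 and rho 0.694, with r = 0.626 without the 2 farthest, 0.707 within early codes and 0.819 within late codes. For Syt17, r was 0.615 and rho 0.549, with r = 0.574 without the 2 farthest. Within late codes the Syt17 relation was weaker, with r = 0.468 and r = 0.302 without the 2 farthest, so there it leans on those libraries. Over all 61 release genes r ran between -0.585 and 0.88, with a median of -0.0045, and Syt13, at 0.681, ranked between Syt2 and Syt17. Sv2a at 0.605 and Cplx1 at 0.577 ranked next after Syt17. The other interneuron markers were not set against these genes. The libraries share the dissection of each animal, and its part in these relations was not tested.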
